A study of Canis lupus familiaris with 6 samples.

Results

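Cells can change their own RNA after it has been copied from DNA, and the enzymes that do so are deaminases. APOBEC1 removes the amino group from cytidine and so turns it into uridine. Its classic substrate is the APOB messenger RNA of the intestine, where A1CF, an RNA-binding cofactor, helps to position it. ADAR and ADARB1 act on adenosine within double-stranded RNA and turn it into inosine, which the ribosome reads as guanosine. ADAR also has an interferon-inducible form, and its editing keeps the cell's own double-stranded RNA from being taken for viral RNA by sensors such as IFIH1.

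The genes described here are APOBEC1, A1CF, ADAR and ADARB1, chosen by gene symbol with their mix culture against single culture values already known. A probe belonged to them if the gene name column of the array carried exactly one of these symbols. That rule found 3 probes for 3 of the 4 genes, among 43603 non-control probes, and 1 of the 3 was bright enough to be tested. ADAR had no probe under its own symbol. A probe that the array describes as RNA-specific adenosine deaminase, the full name of ADAR, carries only a transcript identifier as its gene name. It lies outside the rule and is given beside the members under that description.

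The study asked how β-cat ΔN/RasV12 cells, which carry an active form of β-catenin and an inducible oncogenic Ras, differ in gene expression when β-cat ΔN cells surround them. MDCK is a dog kidney epithelial cell line. In the single culture, MDCK-pTR cells with GFP-RasV12 and mCherry-β-catenin Δ131 grew alone. In the mix culture, they grew with MDCK cells carrying mCherry-β-catenin Δ131 only, at 1 RasV12 cell to 10 surrounding cells. Both cultures were kept on collagen-coated dishes and received tetracycline, which switches on GFP-RasV12, for 24 h, and both carry the β-catenin construct, so no array shows cells without it. GFP-positive cells were sorted by flow cytometry before RNA was taken. Each culture had 3 replicates, each on 1 single-colour Agilent dog array. Nothing in the labels says that replicates came from separate cultures, so the spread between them may be technical in part.

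Replicate 1 of both cultures lay on slide 1, and replicates 2 and 3 of both lay on slide 2, which was read with other scan settings and a later software version. Between 61.1% and 65.7% of spots on an array were well above background, which is the scanner software's own test of a spot against its surroundings. Arrays of the same culture and slide correlated at 0.996, arrays of different cultures on the same slide at 0.984 to 0.990, and arrays of the same culture on different slides at 0.975 to 0.979, so the slide separated the arrays more than the culture did. In the value table deposited with the arrays, the columns of mix culture replicates 2 and 3 each matched the other replicate's scanner data, with correlations of 0.999 and 0.993 against 0.457 and 0.459 for their own. Both are mix cultures, so this exchange could touch only the replicate names and the fit with the replicate block. All 8 kidney epithelium markers that have a probe were well above background on all 6 arrays. Of the intestine and liver epithelium markers, FABP2, APOA1 and APOB were above it on none. The summed signal of that list, in units of each array's 75th percentile, spanned 1.90 to 3.82 in single culture and 1.43 to 5.02 in mix culture. The HRAS probe had a normalised log2 signal of 6.42 ± 0.43 in single culture against 5.79 ± 0.36 after mix culture (SD, n = 3), with overlapping groups.

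The probe sequences are shown because on an array they fix what each value measures. Each is 60 bases long and is written 5′ to 3′. Positions are those of the array annotation, on the dog build CanFam3.1, and exon boundaries and UTRs were not analysed here. The APOBEC1 probe matches chr27:37103109-37103168 on the minus strand and starts at base 786 of transcript ENSCAFT00000022059. The A1CF probe matches chr26:37098497-37098556 on the plus strand (ENSCAFT00000024715). The ADARB1 probe matches chr31:38795974-38796033 on the plus strand (ENSCAFT00000017660). The probe described as RNA-specific adenosine deaminase matches chr7:42782921-42782980 on the plus strand, from base 3266 of ENSCAFT00000027191.
APOBEC1: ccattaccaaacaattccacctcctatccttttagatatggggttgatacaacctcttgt
A1CF: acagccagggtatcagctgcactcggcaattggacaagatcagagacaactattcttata
ADARB1: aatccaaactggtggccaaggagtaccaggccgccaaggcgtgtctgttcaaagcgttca
RNA-specific adenosine deaminase: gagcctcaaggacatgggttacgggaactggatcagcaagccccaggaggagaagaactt
None of the 4 shared a run of 20 bases with any other probe of the array, compared in the same orientation. G and C made up 40% of the APOBEC1 probe, 45% of the A1CF probe and 55% of each of the other two.

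APOBEC1 RNA was the member that separated the cultures. Its background-subtracted signal was 25.5, 15.4 and 12.7 intensity units in single culture replicates 1 to 3. It was 226, 181 and 167 in mix culture replicates 1 to 3. The probe was well above background on all 6 arrays, and the dimmest mix culture array was brighter than the brightest single culture array. The single culture signals were 2.94 to 6.08 times the lowest signal that counted as well above background on the same array, and the mix culture signals were 38.7 to 53.4 times that lowest signal. Put another way, the probe was brighter than 47.2% to 52.3% of all probes in single culture and brighter than 74.7% to 75.3% in mix culture, so it moved from the middle of the array towards its upper end.

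**Figure D1:**
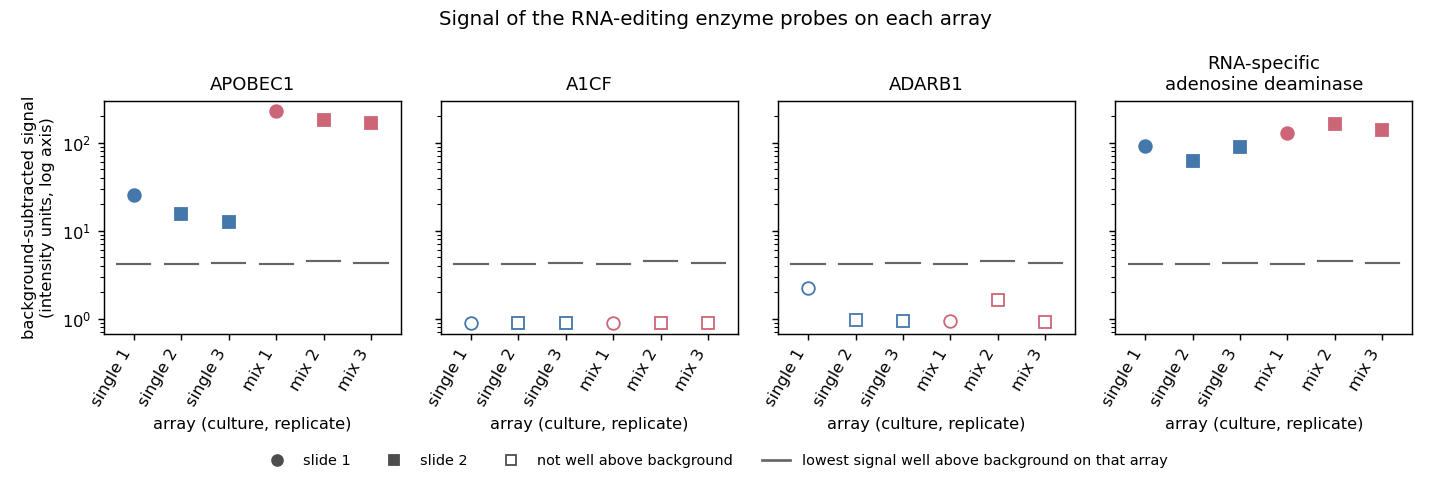
Background-subtracted signal (intensity units, log axis) of the 3 member probes and of the probe described as RNA-specific adenosine deaminase on each of the 6 arrays, in blue for single and red for mix culture, circles for slide 1 and squares for slide 2. Open symbols are not well above background and grey bars mark the lowest signal that was. APOBEC1 lies at 12.7 to 25.5 in single culture and at 167 to 226 in mix culture, whereas A1CF and ADARB1 lie under the grey bars throughout.

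After each array was scaled by its 75th percentile, the normalised log2 signal of APOBEC1 was -3.40 ± 0.37 for single culture against 0.003 ± 0.05 for mix culture (SD, n = 3 each). The difference was 3.41 on the log2 scale (SE 0.21), or 10.6-fold higher in mix culture. It was 1.76 after normexp background correction, whose offset of 50 exceeds the single culture signals. The lowest mix culture value stood 2.97 above the highest single culture value. Because APOBEC1 was picked for this contrast, these values describe it and no test is attached to them. The choice of the gene also fixed that the 1 member probe tested would be among those past the adjusted p threshold of 0.05, and nothing is read from it. Over all 26623 probes tested 0.871% passed, which splits into 0.804% higher and 0.0676% lower in mix culture. By size of the rise, APOBEC1 ranked 47 among all probes tested and 8 among the 10280 gene symbols whose best probe was well above background on all 6 arrays. In bulk RNA of sorted cells, more APOBEC1 RNA in each cell and more cells that hold it cannot be told apart.

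The rise was present on both slides. On slide 1, with 1 array per culture, it was 2.97 on the log2 scale, and on slide 2 it was 3.63. Single culture replicates spread over -3.01, -3.44 and -3.76, with the slide 1 array highest, whereas mix culture replicates lay at -0.04, 0.00057 and 0.05. Whether APOBEC1 differed between the slides is a question that the choice of the gene did not use. Slide, scan settings, software version and replicate number changed together and cannot be told apart. Slide 2 against slide 1 gave -0.26 (SE 0.17) with a limma adjusted p of 0.244, while 47.2% of all probes tested differed between slides. Without mix culture replicate 1, the same comparison gave -0.59 with a limma adjusted p of 0.0439. The interaction of slide and culture was 0.65 (SE 0.25, limma adjusted p = 0.516), against 0.0488% of all probes that passed this test.

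A1CF, the cofactor, was at background in both cultures. Its 6 values lay between 0.886 and 0.908 intensity units, at 20.3% to 21.4% of the lowest signal counted as well above background on each array. It was well above background on 0 of 6 arrays, so no fold between cultures is given.

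ADARB1, the second adenosine deaminase and the one best known for editing glutamate receptor RNA in brain, was likewise well above background on 0 of 6 arrays. Its signal was 2.22, 0.964 and 0.943 in single culture and 0.952, 1.64 and 0.931 in mix culture. The highest of these reached 53.0% of the lowest signal counted as well above background. Values this low have no order, so neither culture can be called higher.

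The probe described as RNA-specific adenosine deaminase was well above background on all 6 arrays. Its signal was 90.4, 61.2 and 89.0 in single culture and 130, 162 and 137 in mix culture. The groups did not overlap, with normalised log2 signals of -1.20 ± 0.25 and -0.41 ± 0.38 (SD, n = 3 each), but the gap between them was 0.11. Groups stood apart in this direction for 7.83% of all probes tested. The difference of 0.79 (SE 0.24), 1.73-fold, had a limma adjusted p of 0.327 and was not called. With the slide as a block, where 7.22% of all probes were called and 3.99% were called higher, the adjusted p was 0.0387, and with the replicate number as a block, where 5.29% were called, it was 0.0538. The difference was 0.35 on slide 1 and 1.01 on slide 2, and the interaction with the slide had a limma adjusted p of 0.587. On slide 2 alone, where 998 of 26807 probes were called, the limma adjusted p was 0.0289. From the deposited value table, where 4077 of 26623 were called, it was 0.0313. After normexp background correction the difference was 0.50 (limma adjusted p = 0.552). With 1 array left out, the probe was never called, with limma adjusted p from 0.118 to 0.864. The call for this probe therefore depended on the processing and on how the slide entered the model.

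Other deaminases of the same families gave little signal or no called difference. Among 14 cytidine deaminases listed beside APOBEC1, 5 had a probe and 1 was tested. APOBEC2, APOBEC4 and CDA were not well above background on any array. APOBEC3H, a member of the branch that mutates retroviral DNA, was well above background on all 6 arrays with signals of 7.61 to 14.8 in single culture and 8.43 to 10.4 in mix culture. The cultures overlapped, and the log2 difference was -0.30 (SE 0.22, limma adjusted p = 0.83). Among 6 other adenosine deaminases of RNA, 2 had a probe, of which ADAD1 was not well above background on any array. ADAT1, which deaminates transfer RNA, differed by 0.04 (SE 0.37, limma adjusted p = 0.991), with overlapping cultures.

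RNAs of the proteins that work with APOBEC1 were well above background on all 6 arrays where they had a probe, and none was called. All 6 with a probe, of 7 listed, were tested, and their differences ran from -0.14 to 0.28 with a median of -0.05, equal to the median of -0.05 over all probes tested. RBM47, an RNA-binding protein that can serve APOBEC1 as a cofactor, was bright on every array. Its signal was 2545, 1969 and 1846 in single culture and 3367, 2505 and 2237 in mix culture. Its normalised log2 values did not overlap between cultures (3.42 to 3.63 against 3.79 to 3.85). Mix culture was higher without overlap for 7.83% of all probes tested. The RBM47 difference of 0.28 (SE 0.14) had a limma adjusted p of 0.706. SYNCRIP, which binds the same RNA, differed by -0.09 (SE 0.31), HNRNPAB by -0.14 (SE 0.26), DNAJB11 by -0.01 (SE 0.28) and BAG4 by 0.08 (SE 0.17). CELF2 differed by -0.14 (SE 0.46). Its signals on slide 2, 5.04 and 7.86 in single and 5.23 and 5.86 in mix culture, lay near the lowest counted as well above background there.

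The 12 regulators and partners of ADAR were all tested and none was called. Their median difference was -0.09, with a range of -0.53 to 0.15. XPO5, an export receptor for small double-stranded RNAs, was the lowest at -0.53 (SE 0.18, limma adjusted p = 0.412), with 1.16 ± 0.23 in single and 0.62 ± 0.13 in mix culture. TNPO1, which carries ADAR into the nucleus, was at -0.29, and in both genes the cultures did not overlap. Mix culture was lower without overlap for 8.68% of all probes tested. DHX9, a helicase that unwinds structured RNA, differed by 0.07.

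**Figure D2:**
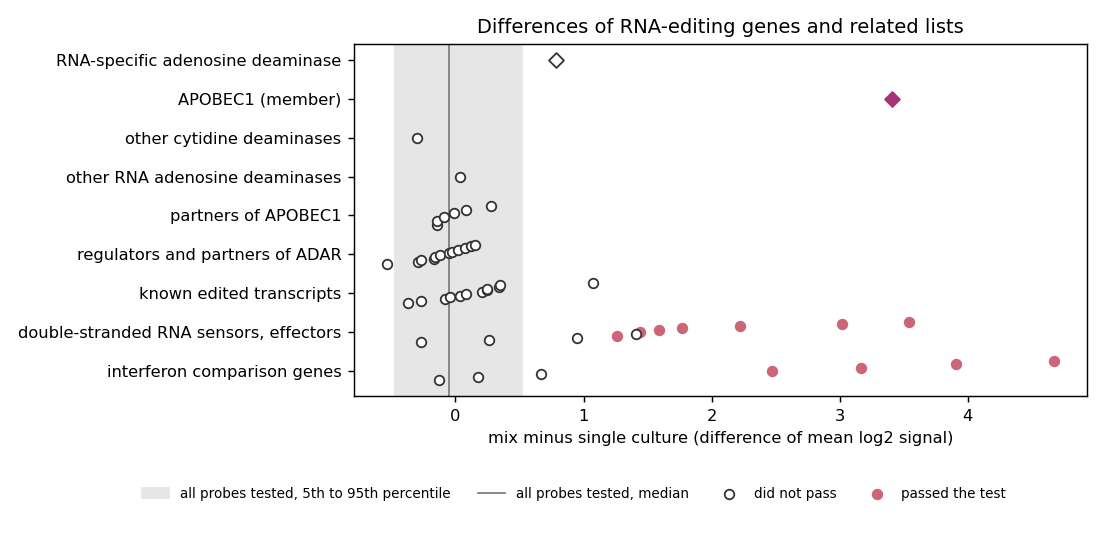
Difference of mean normalised log2 signal, mix minus single culture, for every tested gene of 7 lists, for APOBEC1 and for the probe described as RNA-specific adenosine deaminase (diamonds, 1 probe each). Filled circles passed the limma test and open circles did not, the grey band spans the 5th to the 95th percentile of all 26623 probes tested and the grey line marks their median of -0.05. The partners of APOBEC1 lie within the grey band, XPO5 at -0.53 is the ADAR partner below it, and the called genes are 7 sensors and 4 interferon comparison genes.

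The RNAs known as targets of these enzymes were measured for their amount, since an array does not read editing itself. Of 23 listed, 20 had a probe and 12 were tested, with a median difference of 0.14 and no call. APOB, the substrate by which APOBEC1 is known, was not well above background on any array. Its signal was 0.911 to 0.975 in single culture and 2.93, 0.915 and 0.959 in mix culture replicates 1 to 3, and values this low have no order. The glutamate receptor subunits GRIA2, GRIA3, GRIA4, GRIK1 and GRIK2, the serotonin receptor HTR2C and the potassium channel KCNA1 were not tested either. NF1 and EIF4G2, whose RNAs have been reported as substrates of APOBEC1, differed by 0.21 (SE 0.19) and 0.03 (SE 0.17). GABRA3, a GABA receptor subunit whose RNA is edited by adenosine deaminases, was the highest of the list. Its signal was 42.1, 53.4 and 38.2 in single culture and 112, 119 and 69.0 in mix culture. The cultures did not overlap, as for 7.83% of all probes tested in this direction. The difference of 1.07 (SE 0.25) had a limma adjusted p of 0.157. It became 0.018 with the slide block and 0.0032 with the replicate block, where 7.22% and 5.29% of all probes were called. After normexp the difference was 0.58 (limma adjusted p = 0.37), and on slide 2 alone 0.999 (limma adjusted p = 0.0905). With 1 array left out, GABRA3 was never called, with limma adjusted p from 0.155 to 0.573.

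Double-stranded RNA is the substrate of ADAR and also the trigger of a set of sensors, which were listed for comparison. Of 11 tested, 7 were called higher in mix culture and none lower, against 0.804% of all probes called higher. The median difference was 1.44. DHX58, a regulator among the RIG-I-like receptors, was well above background on the 3 arrays of mix culture and on 1 of single culture, so it entered the test through the culture where it was bright. Its difference of 3.54 (SE 0.56, limma adjusted p = 0.045) rests in part on signals at background, and after normexp it was 0.68 and not called. OAS2, which makes an antiviral second messenger when it binds double-stranded RNA, rose by 3.02 (SE 0.18), and DDX58, which encodes RIG-I, by 2.22 (SE 0.24). That count was 1 without single culture replicate 3, 1 when mix culture replicate 3 was dropped, 2 when mix culture replicate 2 was dropped, and 6 when any 1 of the other arrays was dropped. The call for DHX58 was lost when any 1 of mix culture replicates 1, 2 and 3 or single culture replicate 3 was left out, with adjusted p up to 0.211. The call for DDX58 was lost without single culture replicate 3, mix culture replicate 2 or mix culture replicate 3, with adjusted p up to 0.0618. EIF2AK2, the kinase PKR, had a difference of 0.95 with a limma adjusted p of 0.056. It passed with the slide block, where 9 genes of the list were called, against 7.22% of all probes.

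Genes commonly induced by interferon were the second comparison list. Of 7 tested, 4 were called higher in mix culture and none lower, against 0.804% of all probes called higher. The median difference was 2.47, and 4 were called whichever array was left out. The antiviral GTPases MX2 and MX1 rose by 4.68 (SE 0.32) and 3.17 (SE 0.21), and IFIT1, which binds foreign RNA, by 3.91 (SE 0.19), or by 1.85 after normexp. The signalling factors STAT2, IRF1 and IRF9 did not pass, at 0.66, 0.18 and -0.13, and STAT2 passed with the slide block. IFNB1 was not well above background on any array. These 2 lists were chosen with earlier results of these data known, so their counts are no independent evidence of a direction. Over all 7 lists, 11 of 50 tested genes were called, all of them higher in mix culture, against 0.871% of all probes called. With the slide block or the replicate block 15 were called, where 7.22% and 5.29% of all probes were called. The 11 became 5 without single culture replicate 3, 6 without mix culture replicate 2 and 5 without mix culture replicate 3.

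Genes whose pattern over the 6 arrays was most like that of APOBEC1 were found by Pearson's r in normalised log2 signal, among 25612 other probes well above background on all 6. Such an r rests on 6 arrays in 2 cultures and mostly follows the difference between them, and 203 probes had r above 0.95. LOC100856475, described as GPRC5B-like, came first with r = 0.9996. Its signal was 39.6, 22.7 and 20.2 in single culture and 330.3, 288 and 248 in mix culture, so it rose by 3.38 (SE 0.21) on the log2 scale, or 1.94 after normexp, and shared with APOBEC1 a brighter single culture on slide 1. ISG15, a ubiquitin-like protein that is joined to other proteins, followed with r = 0.9957, and G1P2, an older symbol of the same gene, with r = 0.9953. The ISG15 probe lies on the plus strand and the G1P2 probe on the minus strand of chromosome 5, and they rose by 2.47 and 2.77. Whether both probes read the same transcript was not tested. LOC481143 and TSHZ1, which encodes a zinc finger protein, both had r = 0.9946 with smaller differences of 0.37 (limma adjusted p = 0.488) and 0.84 (limma adjusted p = 0.0523), so a like pattern did not mean a like size. TSHZ1 passed with the slide block (limma adjusted p = 0.0027).

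**Figure D3:**
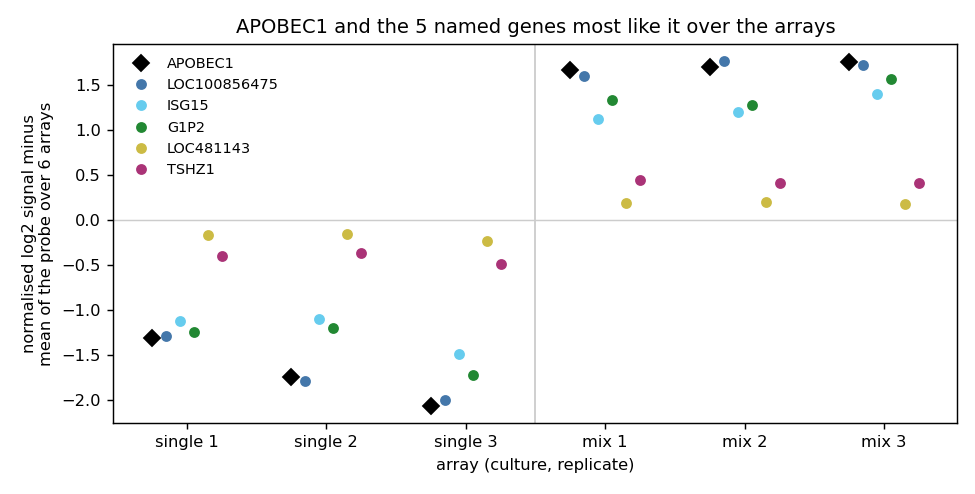
Normalised log2 signal of APOBEC1 (black diamonds) and of the 5 named symbols most like it (circles), each minus its own mean over the 6 arrays. Arrays are on the horizontal axis, with a vertical line between single and mix culture. ISG15 and G1P2 are symbols of the same gene. APOBEC1 and LOC100856475 lie at nearly the same height on every array, with differences of 3.41 and 3.38, and LOC481143 and TSHZ1 lie closer to 0, with differences of 0.37 and 0.84.

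The last comparison was with the neighbours of APOBEC1 on its chromosome, a window of 500 kb on each side chosen after the values were seen. It held 32 other probes, of which 13 were tested. Their differences ran from -0.45 to 1.84 with a median of 0.08, and 1 of the 13 was called, against 0.871% over all probes tested. GDF3, a growth factor gene, at 22.8 kb and MFAP5, a microfibril protein gene, at 62.7 kb were not well above background on any array, and DPPA3, at 63.9 kb, was above it on 1. M6PR, PHC1 and NECAP1, each measured on all 6 arrays farther out, gave differences between -0.04 and 0.19, and none was called. The called probe has no gene name and matches chr27:36925079-36925138 on the minus strand, 178 kb from APOBEC1. Its sequence is printed so that it can be placed, in the same form as above.
Probe with no gene name: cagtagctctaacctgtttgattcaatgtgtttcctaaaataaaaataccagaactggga
Its signal was 4.92, 7.14 and 6.19 in single culture and 31.8, 17.2 and 20.7 in mix culture, and it was well above background on 5 of 6 arrays, all but single culture replicate 1. It too entered the test through mix culture, and its difference of 1.84 (SE 0.26, limma adjusted p = 0.027) rests in part on a signal at background. After normexp the difference was 0.34 and it was not called. The call was also lost without single culture replicate 3 or without any 1 of mix culture replicates 1, 2 and 3, with adjusted p up to 0.146.

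**Figure D4:**
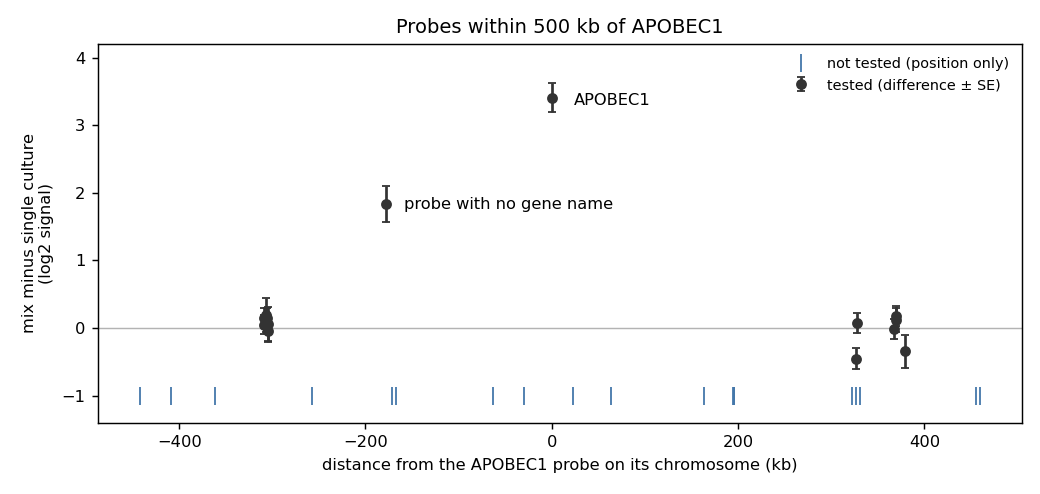
Difference in normalised log2 signal, mix minus single culture, of the tested probes within 500 kb of APOBEC1 against their distance from its probe in kb (points with SE bars). Blue ticks mark the positions of 19 probes that were too dim to be tested. APOBEC1 stands at 3.41 and the probe with no gene name at 1.84, and the other 12 lie between -0.45 and 0.19.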

How the data were processed

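RNA of sorted GFP-positive MDCK cells was hybridised in 1 colour (Cy3) to 6 Agilent dog arrays, 3 per culture. The deposited intensity values are the processed signals of Agilent Feature Extraction 11.5.1.1 (slide 1) or 12.1.1.1 (slide 2), background-subtracted per the file headers and not scaled between arrays. A series table of log2 values from the authors, centred within each slide, served as an alternative only.

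Control spots and outlier spots were dropped (5 to 9 outliers per array, none saturated), spots of 1 probe were averaged, and the 75th percentile of log2 signal was subtracted per array. A probe was tested if its spots rose well above background on all 3 arrays of either culture. Differences were fitted with limma 3.58.1 in R 4.3.3 (lmFit, eBayes, two-sided) on all 6 arrays without a block, with Benjamini-Hochberg adjustment over all probes tested and a threshold of 0.05. This called 232 probes, and 1408 with the replicate number as a block. The labels do not say whether the numbers pair the samples. Deviations from the group mean correlated at 0.801, 0.53 and 0.572 for replicates 1, 2 and 3. Replicates 2 and 3 share a slide and correlated higher across numbers, at 0.61 and 0.632. These values therefore show no pairing beyond the shared slide. In each gene the tested probe with the highest mean was used. Symbols came from the gene name of 22683 probes and the description of 1258.

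The members and lists were chosen with earlier results of these data known. The text names all member probes, up to 3 called genes with the largest change per list, the 5 named symbols most like APOBEC1, and others of the lists named for their role after their values were seen. Marker lists of fibroblasts, leukocytes and endothelium summed to 0.813 to 1.83, 1.40 to 1.76 and 5.51 to 14.0 times the 75th percentile in single culture and to 0.682 to 1.47, 1.28 to 1.55 and 4.67 to 14.4 in mix culture. No marker was called, and kidney epithelium summed to 663 to 828 and 464 to 658. The small number of arrays limits the precision. Some genes of the lists are counted but not reported by name here.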

Additional observations from a re-analysis of the deposited data

How the results depend on the processing

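APOBEC1 was higher in mix culture under every alternative that was run. Its log2 difference was 1.76 after normexp background correction, whose offset of 50 exceeds the single culture signals, 2.97 on slide 1 alone, and 3.23 to 3.60 with 1 array left out. The methods' t-test (unpaired, two-tailed, adjusted) called 0 member probes, and no support is drawn from its call elsewhere, since the gene was chosen on this contrast. The number of probes called over the array, 232, was far less stable. It was 101 with normexp, 142 when all 6 arrays had to be above background, 1923 with the slide block and 998 on slide 2 alone. The authors' table gave 4077 and the methods' t-test 8 (2596 at an unadjusted p under 0.05). Values of the authors' table were already centred within each slide, which its fit did not account for. Whether this raised its number of calls was not tested. The replicate block gave 1408, and a crossed pairing, added after seeing the data because 2 table columns matched each other's array, gave 1459. Of the 232 calls, 214 were higher in mix culture, against 1063 of 1923 with the slide block and 1948 of 4077 from the authors' table. Leaving out 1 array gave 91 to 247, with 91 without single culture replicate 3, 92 without mix culture replicate 2 and 92 without mix culture replicate 3.

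Against 11 called genes of the lists, the authors' table called 18, with the limit given above, and the methods' t-test 1. Leaving out 1 array gave 5 to 10. For the slide comparison, 0 member probes were called, against 1 without a filter (A1CF, at background) and 0 to 1 with 1 array left out. The interaction with the slide stayed at 0 calls, and it could not be fitted without replicate 1 of either culture. Among the 12 named symbols and probes refitted under every alternative, with ISG15 and G1P2 counted apart, none reversed its direction. On slide 2 alone, other genes of the lists with differences near 0 did, among them ADAT1 (-0.17), SYNCRIP (0.04) and DNAJB11 (0.11), none of them called. OAS2, MX1, MX2, IFIT1, ISG15, G1P2 and LOC100856475 lost their call only under the methods' t-test, but with normexp the difference fell to 1.85 for IFIT1, 1.94 for LOC100856475, 1.89 for G1P2 and 3.64 for MX2. DHX58 lost it with normexp (0.68 on the log2 scale), with quantile normalization and without a filter, and the cause was not tested. Signals near background, as for A1CF, ADARB1 and APOB, give no level.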
